A study of Mus musculus with 4 samples.

Results

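Igf2r encodes the cation-independent mannose-6-phosphate receptor, which also binds insulin-like growth factor 2. Its binding by 2 splicing proteins was mapped by CLIP-seq in mouse embryonic fibroblasts (MEFs), cells grown from the connective tissue of embryos; the method fixes a protein to RNA by ultraviolet light, pulls it down and sequences the attached RNA. Of the 4 samples, 2 were analysed here. The first is SRSF1 CLIP from SRSF1 tet-repressible MEFs, and the second is SRSF2 CLIP from SRSF2 tet-repressible MEFs. Per the labels' protocols, both lines were kept without tetracycline and the tagged protein was precipitated with an anti-HA antibody. No siRNA is given in the labels of these samples, and the siControl and siSRSF2 samples of SRSF1 CLIP are not analysed here. Each protein was measured in its own line, in 1 library, so protein and line cannot be told apart and no difference between the proteins has a replicate check. The members are all peaks that the authors named after the RefSeq transcript of Igf2r: 31 of 50983 SRSF1 peaks and 52 of 56336 SRSF2 peaks. The gene was selected on its number of peaks, above all of SRSF2, in earlier results of these lists, so its counts, share, positions, scores and overlap are given as a description without a test.

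The receptor carries newly made lysosomal enzymes from the Golgi to endosomes, and at the cell surface it takes up insulin-like growth factor 2 for breakdown. In most mouse tissues the gene is imprinted and is transcribed from the maternal allele. On the paternal allele a long noncoding RNA, Airn, starts in the second intron of Igf2r and runs on the opposite strand. SRSF1 and SRSF2 are SR proteins, which bind RNA, often in exons, and take part in the choice of splice sites.

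Igf2r carried many peaks of both proteins, with more listed for SRSF2 than for SRSF1. On mm9 the 83 peaks reached from 12876028 to 12941645 on chromosome 17, minus strand, a stretch of 65.6 kb. SRSF1 peaks covered 65.6 kb from first to last and SRSF2 peaks 64.7 kb, so both proteins were listed along nearly the same stretch. Igf2r ranked 6th in total peaks among 2155 genes with a symbol, 14th for SRSF1 peaks and 3rd for SRSF2 peaks. Peaks in units without a gene symbol do not enter these ranks. All peaks of either list on the minus strand within this stretch carried the name of Igf2r, and 0 belonged to another host unit. In the GENCODE mouse annotation (release 21, build GRCm38) the gene is 87.3 kb long with 48 exons, which make up 10.2% of its length. The peak span equals 75.2% of that length, so about 21.6 kb of the gene lies outside it, at one end or both. That build is not the build of the peaks, so no exon, intron, untranslated region or sequence was assigned to any peak.

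SRSF1 made up 37.3% of the Igf2r peaks (95% exact Clopper-Pearson interval 27.0 to 48.7, 31 of 83), against 47.5% of all peaks (47.2 to 47.8). Over chromosome 17 without Igf2r the share was 47.3% (45.9 to 48.7). These intervals cover counting error only, and peaks are not independent molecules. The interval of Igf2r included the share of all peaks. An interval wholly below that share was found for 2.65% of the 528 genes with a symbol and at least 10 peaks, and one wholly above it for 2.27%; Igf2r was in neither group.

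**Figure D1:**
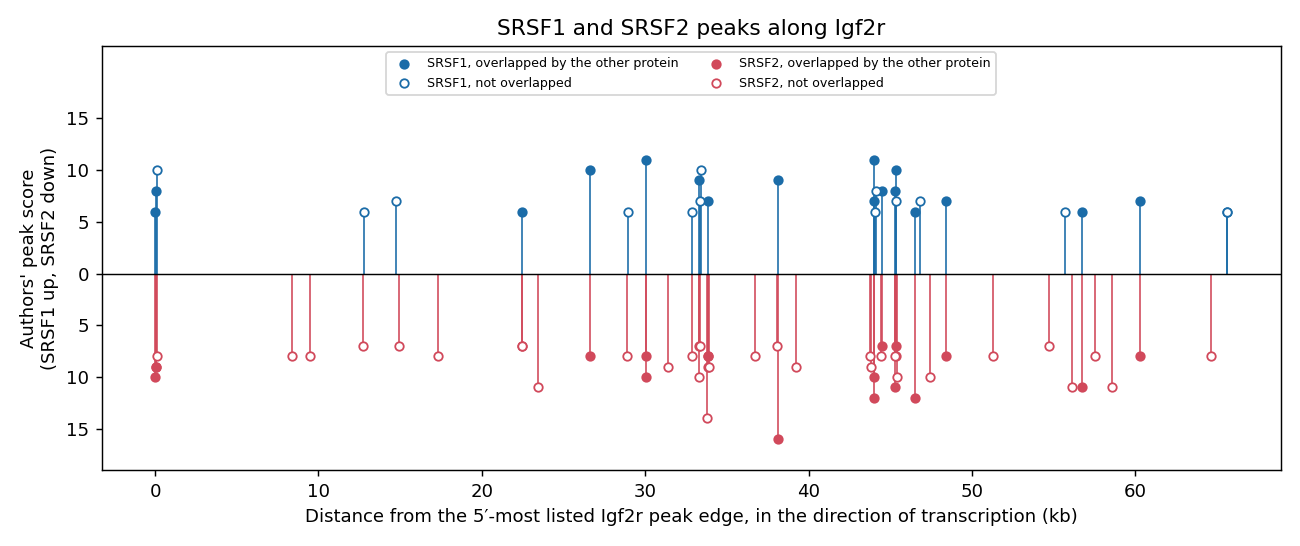
Each peak along Igf2r, by distance in kb from the 5′-most peak edge in the direction of transcription (x) and the authors' score (y, SRSF1 upward and SRSF2 downward). Filled points overlap a peak of the other protein by at least 1 nt. The points crowd between 30 and 50 kb, and the highest SRSF2 score is 16, at 38.1 kb.

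The peaks were not spread evenly along the gene. Positions are given in kb from the 5′-most peak edge, 12941645, in the direction of transcription. The median position was 44.0 kb for SRSF1 (quartiles 29.5 and 45.9) and 35.3 kb for SRSF2 (28.3 and 45.4). The window from 30 to 40 kb held 7 SRSF1 and 16 SRSF2 peaks, and that from 40 to 50 kb held 11 SRSF1 and 14 SRSF2 peaks. Together these windows held more peaks than the rest of the gene. The first 10 kb from the 5′-most peak edge had 3 SRSF1 and 6 SRSF2 peaks, the next 10 kb had 2 and 3, and the window from 20 to 30 kb had 3 and 5. The window from 50 to 60 kb had 2 SRSF1 and 6 SRSF2 peaks. The last 5.62 kb was the exception in direction, with 3 SRSF1 and 2 SRSF2 peaks. SRSF2 peaks were more numerous in each of the other windows. The SRSF1 share ran from 25% to 60% over the windows, with intervals that all included the 37.3% of the whole gene.

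**Figure D2:**
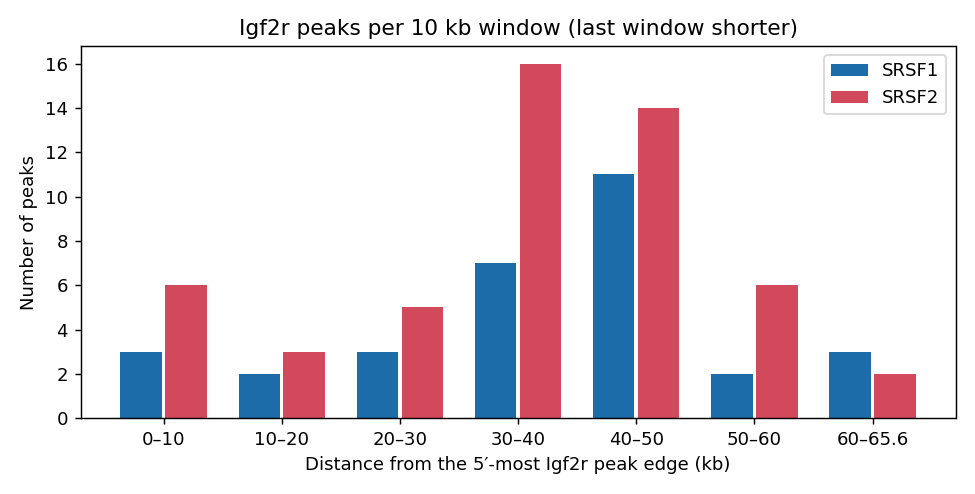
Number of Igf2r peaks of each protein (y) in 10 kb windows from the 5′-most peak edge (x, kb), with a shorter last window. The bars are tallest from 30 to 50 kb, where SRSF1 had 7 and 11 peaks and SRSF2 had 16 and 14.

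Neighbouring peaks were gathered into sites wherever the gap between them was at most 100 nt. This gave 37 sites, of which 17 held peaks of both proteins, 4 held SRSF1 alone and 16 held SRSF2 alone. The 17 sites with both held 26 of the 31 SRSF1 peaks and 35 of the 52 SRSF2 peaks. A site with more peaks can show both proteins more easily, and 3 of the 4 SRSF1-only sites and 15 of the 16 SRSF2-only sites were single peaks. Shares of peaks in such sites are not given here for the whole lists. The nearest measure is a midpoint of the other protein within 100 nt. It held for 83.9% of SRSF1 peaks in Igf2r (66.3 to 94.5) and 54.7% of all SRSF1 peaks. For SRSF2 peaks it held for 67.3% in Igf2r (52.9 to 79.7) and 52.1% in the whole list. Both intervals lay above the share of the whole list. The gene was selected for its many SRSF2 peaks, and what their number contributed to these shares was not tested.

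The 5 sites with at least 4 peaks all had both proteins and together held 33 peaks, 39.8% of those on the gene, in 688 nt. The one with most peaks, 12896237 to 12896373 at 45.3 kb, had 3 SRSF1 and 5 SRSF2 peaks, with highest scores of 10 and 11. The most 5′ site, 12941505 to 12941645, had 3 SRSF1 and 4 SRSF2 peaks with a highest score of 10 for each protein. It was followed by 8252 nt without a listed peak, the longest gap between neighbouring sites. The sites at 12908241 to 12908361 (33.3 kb) and 12907757 to 12907893 (33.8 kb) lay 347 nt apart. The site at 33.3 kb had 3 SRSF1 and 3 SRSF2 peaks, and the site at 33.8 kb had 1 SRSF1 and 5 SRSF2 peaks. The site at 12897515 to 12897666 (44.1 kb) was the only one of the 5 with more SRSF1 than SRSF2 peaks, 4 against 2. These sites were 121 to 152 nt long, a range set in part by the joining distance. Whether they are exons was not tested.

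Part of the peaks of each protein overlapped a peak of the other. Of the SRSF1 peaks in Igf2r, 17 of 31 were overlapped by an SRSF2 peak by at least 1 nt on the same strand (54.8%, 36.0 to 72.7), against 38.7% of all SRSF1 peaks. Of the SRSF2 peaks, 21 of 52 were overlapped by an SRSF1 peak (40.4%, 27.0 to 54.9), against 35.2% of all SRSF2 peaks. The interval for SRSF2 peaks included the share over the whole list, and so did that for SRSF1 peaks. The 21 overlapping pairs had midpoints 2 nt apart at the median, against 3.5 nt over all 20654 pairs of both lists; narrow peaks that overlap must have close midpoints. In 15 pairs (71.4%) the shorter peak lay wholly within the longer, against 67.3% of all pairs. SRSF2 midpoints fell downstream of the SRSF1 midpoint in 9 pairs, upstream in 9 and at the same position in 3.

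One pair had identical ends in both lists, 12893218 to 12893235 at 48.4 kb, with a score of 7 for SRSF1 and 8 for SRSF2. At 46.5 kb the SRSF1 peak 12895122 to 12895140 (score 6) lay inside the SRSF2 peak 12895121 to 12895141 (score 12). The pair with the highest smaller score was 12897604 to 12897629 for SRSF1 (score 11) and 12897608 to 12897629 for SRSF2 (score 12). This ranking treats the scores of both lists as if on 1 scale, which was not tested. In 4 cases 1 SRSF1 peak met 2 SRSF2 peaks, and in 0 cases the reverse. One of these was the SRSF1 peak 12896264 to 12896294, within which SRSF2 had peaks at 12896276 to 12896283 and 12896285 to 12896292.

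Peaks without an overlap differed in how far away the other protein was. Of the 14 SRSF1 peaks without one, 9 had an SRSF2 midpoint within 100 nt and 2 had none within 500 nt. These 2 were the most 3′ peaks of the gene, 12876028 to 12876036 and 12876040 to 12876046, each with the lowest SRSF1 score on the gene, 6. Of the 31 SRSF2 peaks without an overlap, 14 had an SRSF1 midpoint within 100 nt and 13 had none within 500 nt. The most isolated was 12933234 to 12933252 at 8.40 kb, with a score of 8 and 4382.5 nt between midpoints. In all, 93.5% of the SRSF1 peaks in Igf2r (78.6 to 99.2) had an SRSF2 midpoint within 500 nt, against 64.4% of all SRSF1 peaks. For SRSF2 peaks the shares were 75% in Igf2r (61.1 to 86.0) and 62.5% in the whole list. The distances may depend on how densely a gene is covered, which was not tested. Igf2r had 1.26 peaks per kb of its peak span. The median was 0.956 over the other 53 genes with a symbol and at least 40 peaks.

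The peak numbers in the names show that part of the peaks was not in the lists. Numbers rose with position in every RefSeq unit, so an absent one falls between listed neighbours. SRSF1 numbers on Igf2r ran to 41 with 10 absent (24.4%), and SRSF2 numbers ran to 68 with 16 absent (23.5%). Shares for other units are not given here, so these are not shown to be particular to Igf2r. Of the 31 SRSF2 peaks without an SRSF1 overlap, 8 lay where an SRSF1 number was absent between the flanking listed peaks. Of the 14 SRSF1 peaks without an SRSF2 overlap, 5 lay where an SRSF2 number was absent. The other 23 SRSF2 and 9 SRSF1 peaks did not lie in such a place. Numbers after the last one listed would not be seen. Whether unlisted peaks account for a missing overlap was not tested.

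The scores on Igf2r were modest. The sources used here do not say what the score measures, so the scores in this paragraph and the next are set against those of the same list. SRSF1 scores in Igf2r ran from 6 to 11 with a median of 7, against a range of 4 to 354 and a median of 8 in the whole list. SRSF2 scores ran from 7 to 16 with a median of 8, against 4 to 416 and a median of 8. A score of at least 12 was reached by 0 of 31 SRSF1 peaks in Igf2r and 19.9% of all SRSF1 peaks, and by 4 of 52 SRSF2 peaks in Igf2r and 25.2% of all SRSF2 peaks. Among the 54 genes with a symbol and at least 40 peaks, Igf2r ranked 36th by median SRSF1 score and 35th by median SRSF2 score.

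The highest SRSF2 score, 16, belonged to 12903514 to 12903545 at 38.1 kb, above 89.1% of the list. It was overlapped by the SRSF1 peak 12903516 to 12903548, with a score of 9. The next, 14, belonged to 12907870 to 12907893 at 33.8 kb, above 83.6% of the list, and had no SRSF1 overlap; the nearest SRSF1 midpoint was 84.5 nt away. The highest SRSF1 score, 11, was reached by 12911557 to 12911589 at 30.1 kb and 12897604 to 12897629 at 44.0 kb, above 74.9% of the list. Both were overlapped by SRSF2. Overlapped SRSF1 peaks had a median score of 8 and a median width of 21 nt, against 6.5 and 10 nt for the others. Overlapped SRSF2 peaks had a median score of 8 and a median width of 18 nt, the same medians as the SRSF2 peaks without an overlap. The chance of meeting another peak grows with width, and what width contributed was not tested.

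The SRSF1 share of Igf2r depended on the score from which peaks were counted. The lowest listed score on the gene was 6 for SRSF1, with 11 peaks there, and 7 for SRSF2, with 10 peaks. The whole lists start at 4. A limit of 6, the lowest score on the gene, keeps all 83 Igf2r peaks. The share is then 37.3% in Igf2r, against 45.8% of all peaks of that score. With peaks of at least 7 in both lists, 20 SRSF1 and 52 SRSF2 peaks gave 27.8% (17.9 to 39.6), against 44.7% of all peaks of that score. With a score of at least 8, 12 and 42 peaks gave 22.2% (12.0 to 35.6), against 43.6%. With at least 9, 8 and 22 peaks gave 26.7% (12.3 to 45.9), against 43.0%. With at least 10, 6 and 15 peaks gave 28.6% (11.3 to 52.2), against 42.4%. Igf2r lay below all peaks at each of these scores. Its interval lay wholly below the share of all peaks at limits of 7 and 8, and included it at 6, 9 and 10. The drop at 7 follows from the lowest scores on the gene, since that limit removes 11 SRSF1 and 0 SRSF2 peaks. These counts apply 1 limit to both lists, although scores of the 2 libraries may not be on 1 scale, which was not tested. The values are a description, and few peaks remained at the higher limits.

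**Figure D3:**
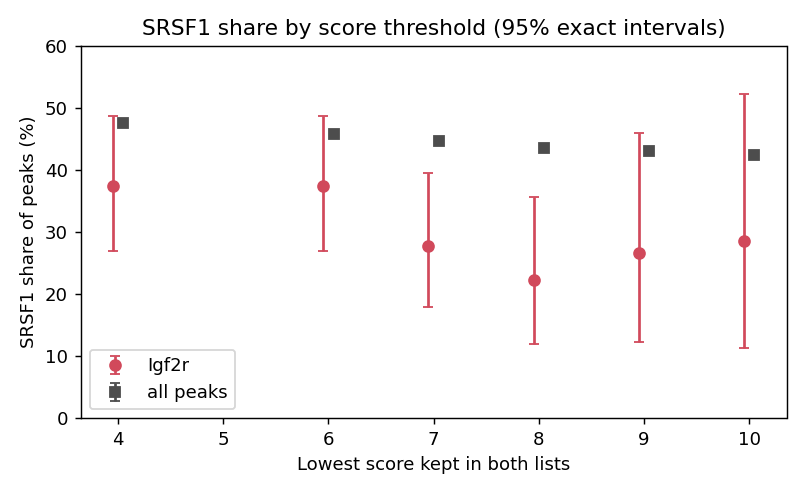
SRSF1 share of peaks in percent (y) when peaks of at least a given score are kept in both lists (x), for Igf2r (circles) and all peaks (squares), with 95% exact intervals. Limits up to 10 are drawn; at a score of at least 8 Igf2r stands at 22.2% and all peaks at 43.6%.

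Among the 54 genes with a symbol and at least 40 peaks, Igf2r had the 50th highest SRSF1 share, so that 4 had a lower one. Eif3c, a subunit of translation initiation factor 3, had the lowest of these, 23.4%, with 11 SRSF1 and 36 SRSF2 peaks. The 5 genes nearest to Igf2r in share, by absolute difference over the 2 samples, were Zwilch, Adam10, Vps35, Smg6 and Dync1h1. Zwilch, a kinetochore protein, had 17 SRSF1 and 29 SRSF2 peaks (37.0%). Adam10, a membrane protease that sheds surface proteins, had 16 and 28 (36.4%). Vps35, a core subunit of the retromer that returns the receptor from endosomes to the Golgi, had 19 and 30 (38.8%). Smg6, an endonuclease of nonsense-mediated decay, was at 35.4% and Dync1h1, the dynein heavy chain, at 39.6%. The intervals of these 5 genes overlapped that of Igf2r.

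The 5 genes nearest in total number of peaks were Lamc1, Smc5 (82 each), Med13 (84), Usp32 (81) and Xpo1 (78). Their SRSF1 shares were 40.2% for Lamc1, a laminin chain, and 42.0% for Usp32, a ubiquitin protease, against 52.4% for Med13, 55.1% for Xpo1 and 56.1% for Smc5. Their overlap shares also differed. SRSF2 peaks were overlapped in 40.4% of cases in Igf2r, against 45% in Med13, 46.9% in Lamc1, 53.2% in Usp32, 74.3% in Xpo1 and 77.8% in Smc5. Within the 54 genes, the overlap of SRSF1 peaks put Igf2r in the middle, 27th, beside a median of 54.5% over the other 53. The overlap of its SRSF2 peaks put it 42nd, beside a median of 50%.

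**Figure D4:**
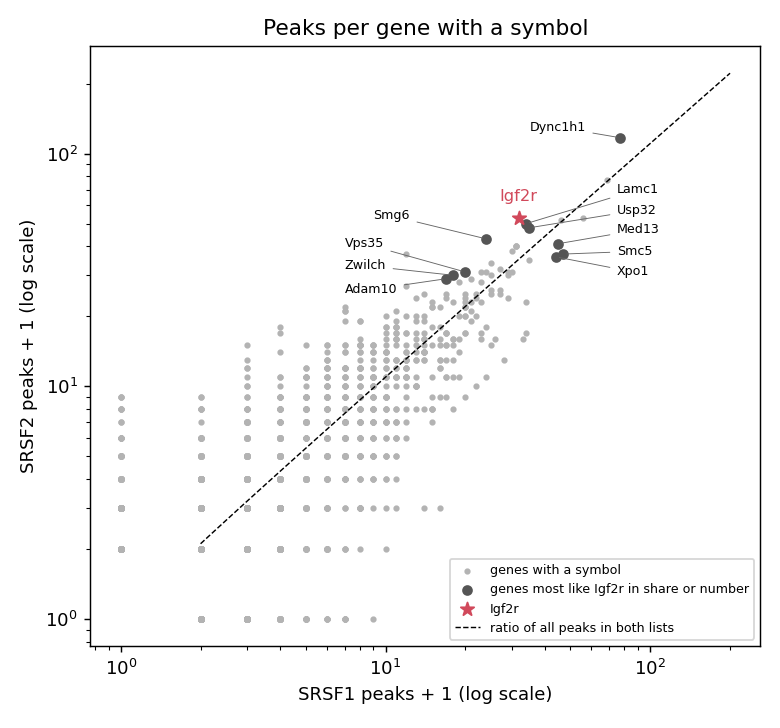
Number of SRSF1 peaks (x) and SRSF2 peaks (y) of each of 2155 genes with a symbol, each plus 1 on log axes; the star is Igf2r and dark points are the 10 genes most like it in share or number. Igf2r, with 31 SRSF1 and 52 SRSF2 peaks, lies above the dashed line, which marks the ratio of the whole lists.

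Genes on a list of mannose-6-phosphate sorting and a list of lysosomal genes carried both proteins wherever they had a named peak. The list of sorting genes had named peaks in 10 of 24 genes and the list of lysosomal genes in 10 of 24. This compares with 8.22% of the 26220 genes in the RefSeq table, which include genes that fibroblasts do not express. All 20 had both SRSF1 and SRSF2 peaks, against 66.0% of all genes with a symbol. These genes also had more peaks, a median of 9.5 for sorting genes and 15.5 for lysosomal genes, against 4 over all genes. A gene with more peaks shows both proteins more easily. Named units hold a minority of all peaks, so a gene without a named peak is not shown to be unbound.

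Among the sorting genes, the retromer subunits Vps35, at 19 SRSF1 and 30 SRSF2 peaks, and Vps29, at 1 and 7, had more SRSF2 peaks. So did the sorting nexin Snx1 at 3 and 8, while Snx2 had 11 and 9. Gga1, an adaptor that binds the tail of the receptor, had 7 SRSF1 and 9 SRSF2 peaks. The adaptor complex subunits Ap1m1 and Ap1s1 had 5 and 8, and 1 and 5. Rab9, a GTPase of the route from endosomes to the Golgi, had 2 of each, Plin3 had 3 and 2, and Gnptg, a subunit of the enzyme that starts the mannose-6-phosphate mark, had 2 and 1. The list had 54 SRSF1 and 81 SRSF2 peaks in all, an SRSF1 share of 40% (31.7 to 48.8).

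Among the lysosomal genes, Lamp1, a membrane protein of lysosomes, had most peaks, with 14 SRSF1 and 22 SRSF2 peaks. The cathepsins Ctsb (12 and 19), Ctsd (5 and 11), Ctsl (5 and 13) and Ctsz (6 and 9) had more SRSF2 than SRSF1 peaks, while Ctsa had 16 of each. Hexa, a hexosaminidase subunit, had 5 and 10, the cholesterol carrier Npc2 4 and 6, the mannosidase Man2b1 1 and 3, and the peptidase Tpp1 6 and 5. The list had 74 SRSF1 and 114 SRSF2 peaks, a share of 39.4% (32.3 to 46.7). The interval of each list pools the peaks of 10 genes and covers counting error only, not differences between genes. An SRSF1 share below that of all peaks was found in 6 of 10 sorting genes and 8 of 10 lysosomal genes, against 44.4% of all genes with a symbol and 53.8% of those with at least 10 peaks. The median share was 41.3% for the sorting genes and 38.8% for the lysosomal genes, against 46.7% over genes with at least 10 peaks and 50% over all genes. The interval of each of the 20 genes included the share of all peaks.

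**Figure D5:**
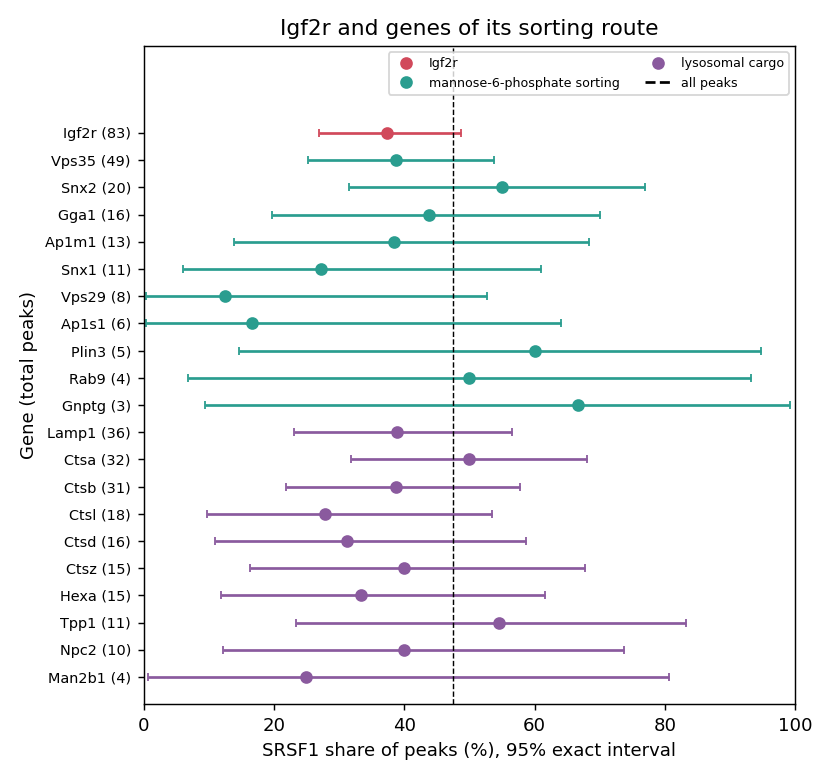
SRSF1 share of peaks in percent with 95% exact intervals (x) for Igf2r at the top and the 20 sorting and lysosomal genes with a named peak (y, total peaks in brackets). Igf2r at 37.3% and Vps35 at 38.8% have the narrowest intervals, and the interval of every gene crosses the dashed line of all peaks at 47.5%.

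Of 21 genes of the insulin-like growth factor axis, 2 had a named peak, a share near the 8.22% of all genes: the binding protein gene Igfbp4 with 2 SRSF1 peaks and the adaptor gene Irs2 with 2 SRSF2 peaks. Of 32 other imprinted genes, 2 had a named peak, Kcnq1 and Zrsr1 with 1 SRSF2 peak each. Airn and the genes Slc22a2 and Slc22a3 of the same imprinted cluster had no named peak, which does not show that they are unbound. An unnamed unit on the strand of Airn is described below. Of 14 fibroblast markers, 2 had named peaks, Col1a1 and Postn. Of the 5 epithelial markers only Krt19 did, with 1 SRSF1 peak. The endothelial, macrophage and neuronal lists, of 4 genes each, had none. With 8.22% of all genes having a named peak, lists this short do not tell cell types apart.

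On the strand opposite to Igf2r, where Airn runs, 0 peaks of SRSF1 and 0 of SRSF2 lay within the span of the Igf2r peaks. With 10 kb added on each side there were also 0 of each. In the GRCm38 annotation Airn overlaps 28.4 kb at the 5′ side of Igf2r, 32.5% of its length. The peak span does not cover the whole gene, so these counts of 0 need not hold for all of that overlap. An absence of opposite-strand peaks was common, since 49 of the 54 genes with at least 40 peaks had none within their span, while Appl2 had the most with 6. The nearest plus-strand peaks lay upstream of the 5′-most Igf2r peak, in an unnamed unit with 2 SRSF1 peaks between 12968721 and 12995210 and 2 SRSF2 peaks between 12961929 and 12999785. The closest, an SRSF2 peak from 12961929 to 12961952 with a score of 6, was 20.3 kb from the 5′-most Igf2r peak. It may lie within Igf2r or outside it, since the gene is longer than the peak span by 21.6 kb. The sources used here do not say which transcript this unit is. On the minus strand, the nearest other peaks on the 5′ side were in Mrpl18, a mitochondrial ribosomal protein gene, 167.0 kb away for SRSF1 and 167.2 kb for SRSF2. The peaks do not tell the parental alleles apart.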

How the data were processed

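CLIP-seq peak lists of 2 samples were used, 1 library for each protein; 2 further samples were not analysed here. Per the labels' protocols, precipitation used an anti-HA antibody and libraries were made for Illumina sequencing. The build is mm9, per the submitters' processing notes, and positions are written 1-based. Not given in the sources used here are the aligner, the peak caller, its threshold and the read depth. The authors deposited a whole-number score for each peak, whose meaning is not given.

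Host units were taken from peak names, and 2155 of 2169 RefSeq units matched a symbol in a RefSeq table of GRCm38.p6, used for names only. Overlap meant at least 1 nt on the same strand. The overlap step was tested on simulated data and gave the same counts as bedtools 2.31.1. Intervals came from scipy 1.17.1. Genes were named by a rule: Igf2r, the 5 genes of at least 40 peaks nearest in SRSF1 share, the 5 nearest in total, and members of 4 gene lists and of the marker lists. Eif3c and Appl2 were named after their values were seen. Members and lists were chosen with earlier results of these data known. Alternatives changed the overlap rule, peak width, score, merging, joining distance and window.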

Additional observations from a re-analysis of the deposited data

How the results depend on the processing

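Of 24 alternatives, 16 left the value within its own counting interval, or within 1.5 times for counts. No paired analysis was possible because each protein has 1 library. The overlapped share rose to 74.2% for SRSF1 and 61.5% for SRSF2 peaks where midpoints had to lie within 50 nt. It was the same where all peaks were set to a 50 nt width. Both rules are wider by construction. In the whole lists, a midpoint of the other protein lay within 50 nt for 48.6% of SRSF1 and 45.5% of SRSF2 peaks. Keeping the peaks at or above their list's median score left 54 peaks, since 19 of the 31 SRSF1 and 10 of the 52 SRSF2 peaks score lower. The SRSF1 share was then 22.2%, and 21.4% of SRSF2 peaks were overlapped. The overlapped share under this limit is not given here for the whole list. The limits at a score of 7, 9 and 10, with SRSF1 shares of 27.8%, 26.7% and 28.6%, were added after seeing the data. Sites numbered 38 with gaps up to 50 nt and 30 with gaps up to 500 nt.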
